A study of Homo sapiens with 12 samples.

Results

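Glycolytic enzyme mRNAs were measured in H1299 cells, a human non-small-cell lung cancer line, after depletion of the translation initiation factor EIF3G. The 10 genes were taken by name from a table of 16172 genes: HK2, GPI, PFKP, ALDOA, TPI1, GAPDH, PGK1, PGAM1, ENO1 and LDHA. All 10 were among the 10605 genes tested. Cells received an equal mix of 2 siRNAs against EIF3G (siEIF3G) or a control siRNA (siCtrl), and were lysed 72 h later. Input RNA came from 10% of each lysate. Polysomal RNA, the mRNA sedimenting with several ribosomes, came from centrifugation of lysate through 10% to 50% sucrose. The 4 groups of 3 libraries each were siEIF3G polysomal, siCtrl polysomal, siEIF3G input and siCtrl input. All of them come from 1 cell line and carry a transfected siRNA. Whether the 3 libraries of a group came from separate cultures is not stated, so the spread behind each p-value may be technical. The design addresses which mRNAs change in level, and which change in their association with polysomes, when EIF3G is depleted.

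The siRNAs define the groups, and their sequences are given here as the labels list them.
siEIF3G-4: gaacaaactcaagggccagaa
siEIF3G-5: gaggtcatcaacggaaacata
siCtrl: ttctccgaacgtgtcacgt
EIF3G itself stood at 60.7, 84.7 and 47.3 TPM in siEIF3G input against 1158, 1092 and 878 TPM in siCtrl input. In polysomal RNA it stood at 143, 132 and 69.2 TPM with siEIF3G against 1680, 1916 and 1803 TPM with siCtrl. The groups lie far apart in both fractions, with 6.16% of the siCtrl mean left in input RNA and 6.38% in polysomal RNA.

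Glycolysis splits glucose into smaller molecules and yields ATP, NADH and pyruvate. Hexokinase (HK2) traps glucose as glucose-6-phosphate, GPI isomerises it, and phosphofructokinase (PFKP is its platelet-type form) makes the committed step. ALDOA splits the sugar, and TPI1 interconverts the products, so that the lower steps by GAPDH, PGK1, PGAM1 and ENO1 run on a single intermediate, with PGK1 making ATP. LDHA turns pyruvate into lactate and regenerates NAD+, which lets glycolysis run on where oxygen or mitochondrial use of pyruvate is limited. Many cancer cells run this route at a high rate even in oxygen, and HK2, PGK1, ENO1, ALDOA and LDHA are known targets of the hypoxia-inducible factor HIF1.

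The promoters of HK2, LDHA and PGK1 are printed because HK2 and LDHA varied together between libraries of a group, and PGK1 varied with PFKP, PGAM1 and ENO1, as described further on. Each is the 250 bases before the annotated start, 5′ to 3′ on the strand of the gene, from RefSeq (GRCh38.p14). Capitals mark ACGTG or GCGTG, the core letters of the hypoxia response element, and their complements CACGT and CACGC. The letters CACGTG hold 2 overlapping matches, 1 on each strand.
HK2 promoter, chr2:74833877-74834126, plus strand: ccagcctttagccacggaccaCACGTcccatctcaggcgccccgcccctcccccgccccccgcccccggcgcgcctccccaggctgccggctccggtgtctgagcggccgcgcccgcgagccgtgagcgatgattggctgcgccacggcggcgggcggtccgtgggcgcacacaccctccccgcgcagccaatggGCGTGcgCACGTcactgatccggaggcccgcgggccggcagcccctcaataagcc
LDHA promoter, chr11:18394313-18394562, plus strand: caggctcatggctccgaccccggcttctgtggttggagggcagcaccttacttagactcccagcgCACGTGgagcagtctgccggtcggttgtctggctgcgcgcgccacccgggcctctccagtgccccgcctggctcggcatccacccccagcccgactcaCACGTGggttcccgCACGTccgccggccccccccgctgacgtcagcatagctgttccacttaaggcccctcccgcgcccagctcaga
PGK1 promoter, chrX:78103998-78104247, plus strand: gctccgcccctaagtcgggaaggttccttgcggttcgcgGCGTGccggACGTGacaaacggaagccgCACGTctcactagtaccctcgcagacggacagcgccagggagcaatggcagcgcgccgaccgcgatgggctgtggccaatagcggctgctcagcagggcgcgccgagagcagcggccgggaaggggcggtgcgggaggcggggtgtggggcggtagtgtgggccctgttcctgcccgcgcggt
HK2 and PGK1 held 3 matches each, and LDHA held 5, with CACGTG at more than one place. The windows at the annotated starts of ENO1 and ALDOA, not printed, held 2 and 1. The windows of PFKP held 0 to 3. A window at an alternative start of HK2 held 6 matches, CACGTG among them. CACGTG was also found in the window of GAPDH and in another window of ALDOA, so it was not confined to LDHA and HK2. RefSeq lists 18 such windows for the 10 genes, alternative starts included. A match was found in 14 of the 18 (77.8%), against 15172 of all 35116 windows of the table (43.2%). CACGTG was found in 4 of the 18 (22.2%), against 2228 of all windows (6.34%). PGAM1 was the gene with no match in its window. A match is a description of letters and shows no binding, and windows of 1 gene can overlap. Whether the matches have a part in the shared variation was not tested.

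The libraries differed in ways that bear on these genes. TPM, transcripts per 1000000 transcripts, is the share of a library's transcripts after correction for gene length, so levels can be compared between genes. In such shares, fewer cells and less RNA per cell cannot be told apart, and a loss of all mRNAs alike leaves no trace. The number of reads is unknown. By mean correlation across genes, 3 libraries resembled the opposite fraction more than their own group: siEIF3G input 2 (0.929 with its own group, 0.958 with polysomal libraries of that siRNA), siCtrl input 1 (0.922 and 0.957, likewise) and siEIF3G polysomal 3 (0.949 with its own group, 0.953 with siEIF3G input). Results between groups are therefore also given without these 3. Because they were picked for their likeness to the opposite fraction, leaving them out tends to widen differences between polysomal and input RNA. Calls between fractions that are gained in this way are no further support. Of 5 epithelial markers, KRT8 and KRT18 were present at 108 to 1934 TPM, while EPCAM, CDH1 and KRT19 stayed under 1 TPM. Of 4 mesenchymal markers, VIM ranged from 265 to 3105 TPM and FN1, CDH2 and ZEB1 reached at most 8.92 TPM. The endothelial (2 of 3 in the table), fibroblast (3 of 4) and lung epithelial markers (2 of 5) each summed to at most 0.31 TPM in a library. Among leukocyte markers, LYZ stayed under 1 TPM and the lysosomal protein CD68 stood at 59.0 to 132 TPM.

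The 10 mRNAs spanned a wide range of levels, with GAPDH far above the rest. GAPDH was the most abundant of all 16172 genes in each of the 6 polysomal libraries, and ranked between 3 and 11 in the 6 input libraries. It stood at 27263, 31864 and 21390.1 TPM in siEIF3G polysomal, at 34389, 21114 and 16400.4 TPM in siCtrl polysomal, at 11298, 16114 and 14629 TPM in siEIF3G input, and at 11502, 13691 and 11721 TPM in siCtrl input. In every library GAPDH alone made up between 50.8% and 60.4% of the summed level of the 10 genes. RefSeq names 65 pseudogenes after GAPDH, 13 after PGAM1, 6 after LDHA, 4 each after TPI1 and ENO1, 2 each after ALDOA and PGK1 and 1 after HK2, and none after GPI or PFKP. None of these pseudogenes is in the table, so reads shared with near-identical copies may count toward the parent genes, and the levels of these genes are uncertain to that extent.

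ENO1, ALDOA and TPI1 came next, at 1948 to 9693 TPM. Neighbours in the order of their means overlapped in each group, except that TPI1 lay above ALDOA without overlap in siCtrl polysomal RNA. In each group GAPDH lay above these 3, and they in turn above PGAM1, with no overlap. PGAM1 stood between 261 and 800.4 TPM over the 12 libraries. In siEIF3G input RNA it lay above all lower genes without overlap, while in each other group its range overlapped that of GPI or LDHA. GPI, LDHA, PGK1 and PFKP followed at 42.1 to 489 TPM, and neighbours in the order of their means overlapped in every group. GPI lay above PFKP without overlap in both input groups, and PGK1 lay above PFKP and LDHA without overlap in siEIF3G polysomal RNA.

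HK2 was the exception to the abundance of the set. It stood at 2.50, 1.85 and 5.78 TPM in siEIF3G polysomal, at 1.15, 1.29 and 0.76 TPM in siCtrl polysomal, at 9.27, 3.32 and 15.4 TPM in siEIF3G input and at 1.55, 7.61 and 12.5 TPM in siCtrl input. It was the lowest of the 10 genes in each group, with no overlap with the next, and ranked between 5207 and 8810 among all genes. HK1, the other widely expressed hexokinase, was also low, at 2.34 to 24.9 TPM.

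**Figure D1:**
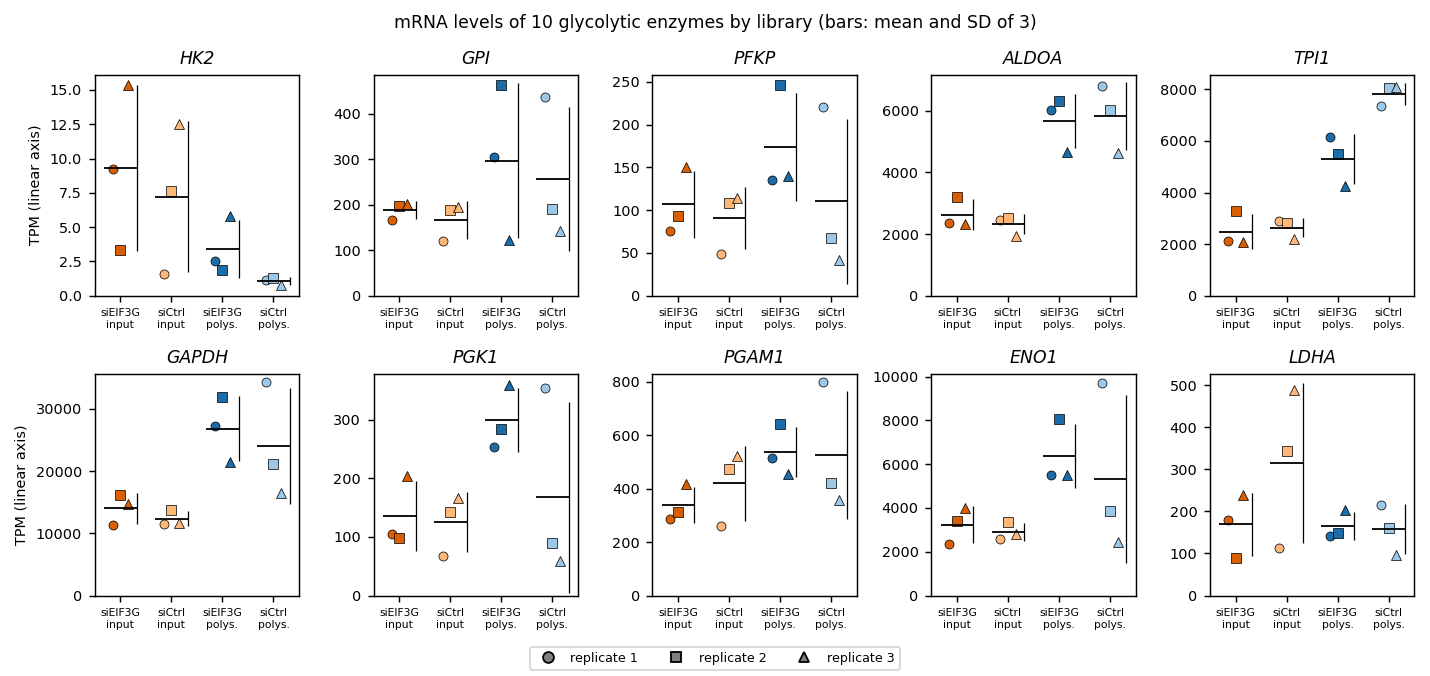
Level of each of the 10 mRNAs in TPM (linear axis, own scale per panel) in every library of the 4 groups, with symbols for the replicate number, a horizontal line at the mean and a vertical bar of 1 SD of 3 libraries. ALDOA, TPI1 and GAPDH lie higher in both polysomal groups than in both input groups, while HK2 lies lowest in siCtrl polysomal.

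The first comparison set polysomal against input RNA, which asks how much of the mRNA pool on polysomes each gene holds relative to its share of the lysate. ALDOA and TPI1 were higher in polysomal RNA with both siRNAs, GAPDH was higher in siCtrl cells, and HK2 was lower in siCtrl cells. The 10 genes together took 4.56% ± 0.824 of siEIF3G polysomal RNA against 2.33% ± 0.402 of siEIF3G input RNA (SD, n = 3 each). In siCtrl cells they took 4.42% ± 1.45 of polysomal RNA against 2.13% ± 0.203 of input RNA (SD, n = 3 each). Every polysomal library lay above every input library, with 3.23% as the lowest polysomal value and 2.68% as the highest input value. Tests below used log2(TPM + 1), which understates changes of low genes, and limma with Benjamini-Hochberg adjustment over all genes tested at a threshold of 0.05.

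ALDOA stood at 6017, 6331 and 4664 TPM in siEIF3G polysomal against 2358, 3219 and 2312 TPM in siEIF3G input. In siCtrl cells it stood at 6818, 6021 and 4644 TPM in polysomal against 2469.6, 2534 and 1948 TPM in input RNA. Polysomal and input libraries did not overlap with either siRNA. The log2 difference was 1.11 (SE 0.22, adjusted p = 0.0192) in siEIF3G cells and 1.32 (SE 0.22, adjusted p = 0.00647) in siCtrl cells. TPI1 stood at 6155, 5497 and 4252 TPM in siEIF3G polysomal against 2104, 3280.2 and 2075 TPM in siEIF3G input. In siCtrl cells it stood at 7341, 8035 and 8107 TPM in polysomal against 2915, 2799.5 and 2203 TPM in input RNA. Again no polysomal library overlapped an input library with the same siRNA. The log2 difference of TPI1 was 1.11 (SE 0.23, adjusted p = 0.0209) in siEIF3G cells and 1.58 (SE 0.23, adjusted p = 0.00239) in siCtrl cells.

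The calls of ALDOA and TPI1 in siCtrl cells held under all alternatives run, while those in siEIF3G cells were close to the threshold. Both siEIF3G calls were lost under 3 other choices (size-factor scaling, no mean-variance trend, a fit of only the groups compared), with totals taken without ribosomal protein genes, and without any of siEIF3G polysomal 1, siEIF3G polysomal 2, siEIF3G input 1 or siEIF3G input 3. Without the 3 libraries that stood apart the differences were larger, at 1.40 for ALDOA (adjusted p = 0.000466) and 1.48 for TPI1 (adjusted p = 0.000287) in siEIF3G cells. Many more genes passed without them, 71.1% of all genes tested in siEIF3G cells and 75.1% in siCtrl cells, against 3.14% and 36.9% with all libraries. As the 3 were picked for likeness to the opposite fraction, these smaller adjusted p values add no support to the calls.

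For GAPDH, whose levels are given above, polysomal libraries lay above input libraries without overlap with both siRNAs. The log2 difference was 0.93 (SE 0.27, adjusted p = 0.0833) in siEIF3G cells, which missed the threshold, and 0.90 (SE 0.27, adjusted p = 0.0365) in siCtrl cells. The siCtrl call was lost without any 1 of siCtrl polysomal 1, 2 or 3, siCtrl input 2 or 3, or siEIF3G polysomal 1, with no filter on low values and in a fit of only the groups compared. Without the 3 libraries that stood apart GAPDH passed with both siRNAs, at 1.20 (adjusted p = 0.00365) in siEIF3G cells and 0.85 (adjusted p = 0.0128) in siCtrl cells. HK2 ran the other way, with a log2 difference of -1.14 (SE 0.63, adjusted p = 0.307) in siEIF3G cells, where the groups overlapped, and of -1.70 (SE 0.63, adjusted p = 0.0493) in siCtrl cells, where they did not. That call rests at the threshold and was lost under 7 settings that kept all libraries, the replicate block among them (adjusted p = 0.0547), and without any of 10 of the 12 libraries. Without the 3 libraries that stood apart HK2 passed with both siRNAs, at -2.04 (adjusted p = 0.000403) in siEIF3G cells and -2.39 (adjusted p = 1.8e-05) in siCtrl cells.

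Of the steps after GAPDH, none was called with either siRNA. PGK1 stood at 254, 284 and 359 TPM in siEIF3G polysomal against 105, 98.4 and 204 TPM in siEIF3G input. In siCtrl cells it stood at 354, 89.3 and 58.6 TPM in polysomal against 67.0, 143 and 166 TPM in input RNA. The siEIF3G groups did not overlap, whereas siCtrl polysomal 1 lay far above the other two libraries of its group. The log2 difference of PGK1 was 1.20 (SE 0.56, adjusted p = 0.243) in siEIF3G cells and 0.08 (SE 0.56, adjusted p = 0.912) in siCtrl cells, and the siCtrl value was -0.68 without siCtrl polysomal 1. ENO1, which makes phosphoenolpyruvate, had 5521, 8044 and 5500.3 TPM in siEIF3G polysomal against 2339, 3399 and 3977 TPM in siEIF3G input. Its siCtrl values were 9693, 3856 and 2454 TPM in polysomal against 2563, 3342 and 2812 TPM in input RNA, again with siCtrl polysomal 1 on top. The log2 difference of ENO1 was 0.98 (SE 0.40, adjusted p = 0.194) in siEIF3G cells and 0.64 (SE 0.40, adjusted p = 0.177) in siCtrl cells. PGAM1 differed by 0.67 (adjusted p = 0.269) in siEIF3G cells, without overlap, and by 0.30 (adjusted p = 0.448) in siCtrl cells.

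LDHA, the last enzyme of the set, had the difference nearest to 0 of the 10 in siEIF3G cells. It stood at 142, 149 and 203 TPM in siEIF3G polysomal against 178, 88.6 and 239 TPM in siEIF3G input, a log2 difference of 0.06 (SE 0.50, adjusted p = 0.935). In siCtrl cells it stood at 216, 161 and 97.3 TPM in polysomal against 113, 344 and 489 TPM in input RNA, a log2 difference of -0.83 (SE 0.50, adjusted p = 0.17). Both pairs of groups overlapped. Without siCtrl input 1, 1 of the libraries that stood apart, the siCtrl difference was -1.44 (adjusted p = 0.00758). The median of all genes was then -1.37, close to LDHA, and 67.8% of all genes tested were called. This gained call is therefore no sign of a difference particular to LDHA. GPI and PFKP, the upper steps, did not pass with either siRNA, at 0.46 and 0.70 in siEIF3G cells (adjusted p = 0.493 and 0.401) and at 0.47 and 0.02 in siCtrl cells (adjusted p = 0.397 and 0.978). In siEIF3G cells GPI passed once the 3 libraries named at the start were left out, at 1.03 (adjusted p = 0.0392). There 71.1% of all genes tested passed, and the libraries were picked for likeness to the opposite fraction, so the call is no further support. With single libraries left out the siEIF3G difference of GPI lay between 0.04 without siEIF3G polysomal 2 and 1.00 without siEIF3G polysomal 3.

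Counted over the set, 2 of the 10 genes were called higher and none lower in siEIF3G polysomal RNA, where 1.81% of all genes tested were called higher and 1.33% lower. In siCtrl cells 3 were called higher and 1 lower, against 7.98% and 28.9% of all genes tested. Libraries did not overlap for 6 genes, all higher in polysomal RNA, in siEIF3G cells (9.4% of all genes tested were higher without overlap) and for 3 higher genes and 1 lower gene in siCtrl cells (16.9% and 28.9% of all genes tested). The median log2 difference of the 10 genes was 0.82 in siEIF3G cells and 0.39 in siCtrl cells, against -0.49 and -0.96 for all genes tested. Relative to all genes the medians were 1.31 and 1.35, and 9 of the 10 genes lay above the median of all genes with each siRNA, HK2 being the one below.

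The shift of all genes depends on the scaling. With median-of-ratios size factors the median of all genes was 0.01 in siEIF3G cells and -0.04 in siCtrl cells, and with quantile normalization it was -0.05 and -0.09. Among the 10 genes, size factors gave 6 higher and 1 lower calls in siCtrl cells and none in siEIF3G cells. Quantile normalization gave 3 higher and no lower calls in each. Over all genes tested in siCtrl cells, 846 calls were higher and 3066 lower as deposited, 2835 and 1723 with size factors, 1657 and 1243 with quantile normalization, and 769 and 4891 with totals taken without ribosomal protein genes. In siEIF3G cells the calls were 192 and 141 as deposited, 18 and 29 with size factors, 144 and 235 with quantile normalization, and 98 and 269 without ribosomal protein genes. LDHA in siCtrl cells was at 0.34 with size factors, so its direction turned, whereas ALDOA, TPI1 and GAPDH stayed higher and HK2 lower under each of these scalings. The share of ribosomal protein mRNAs, which enters every TPM value, was 25.7% to 27.6% of siEIF3G polysomal against 33.8% to 39.3% of siEIF3G input libraries, and 23.0% to 28.3% of siCtrl polysomal against 28.5% to 36.4% of siCtrl input libraries. Its part in the differences was tested only by the totals without these genes.

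**Figure D2:**
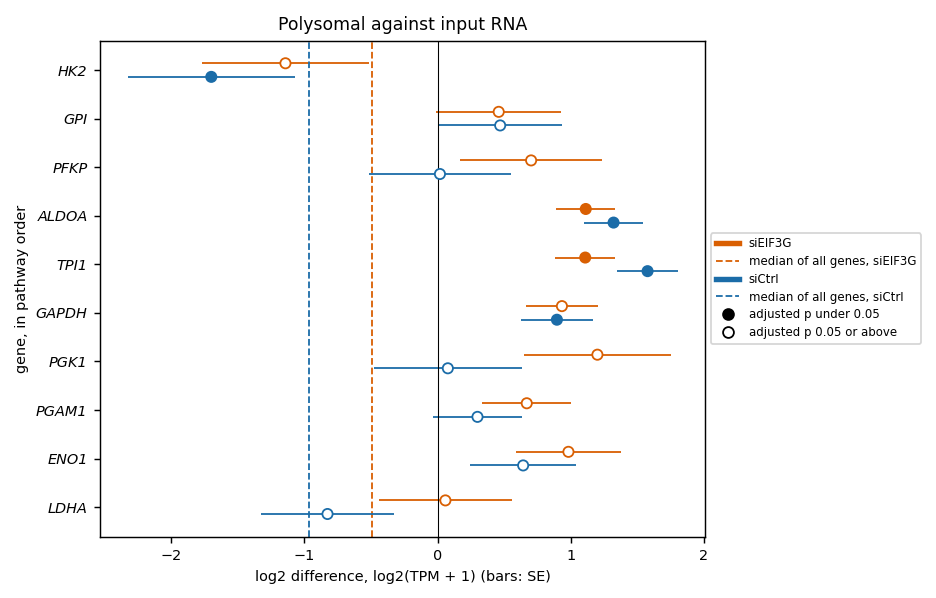
Log2 difference of polysomal against input RNA for each gene, in pathway order from top to bottom, in siEIF3G cells (upper point of each pair) and siCtrl cells (lower point), with bars of 1 SE; filled points have an adjusted p under 0.05 and dashed lines mark the median of all genes tested. The points of 9 genes lie right of the dashed line of the same siRNA, and those of HK2 lie left of it.

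The second comparison set siEIF3G against siCtrl within each fraction. No glycolytic gene passed in input RNA, where 2 of 10605 genes did (0.0189%), and none was under an unadjusted p of 0.05, as were 144 genes tested (1.36%). The libraries overlapped for all 10 genes, while 3.68% of all genes tested had groups without overlap. The log2 differences lay between -0.26 for PGAM1 and 0.43 for HK2, with LDHA apart from them at -0.77 (SE 0.50, adjusted p = 1). The median of the 10 was 0.15, against -0.05 for all genes tested. LDHA input levels, given above, reached 239 TPM at most with siEIF3G, and 489 TPM with siCtrl, but siCtrl input 1 lay among the siEIF3G libraries at 113 TPM. Without the 3 libraries that stood apart the LDHA difference was -0.99 (adjusted p = 0.56), and with single libraries left out it lay between -1.39 without siCtrl input 1 and -0.34 without siCtrl input 3.

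In polysomal RNA, too, none of the 10 passed, as 2 genes tested did (0.0189%). At an unadjusted p under 0.05 there were 2 of the 10, TPI1 and PGK1, against 709 of all genes (6.69%). TPI1 stood at 6155, 5497 and 4252 TPM with siEIF3G against 7341, 8035 and 8107 TPM with siCtrl. These libraries did not overlap, with siEIF3G below siCtrl, as holds for 7.61% of all genes tested. The log2 difference was -0.58 (SE 0.23, adjusted p = 0.65), or -0.91 relative to the median of all genes, which was 0.33. PGK1 differed by 1.26 (SE 0.56, adjusted p = 0.65), but siCtrl polysomal 1 at 354 TPM lay within the siEIF3G range. HK2 was the one gene higher without overlap (21.6% of all genes tested), at 2.50, 1.85 and 5.78 TPM with siEIF3G against 1.15, 1.29 and 0.76 TPM with siCtrl, a difference of 0.99 (SE 0.63, adjusted p = 0.65). Without the 3 libraries that stood apart the differences were -0.43 for TPI1 (adjusted p = 0.334), 1.12 for PGK1 (adjusted p = 0.372) and 0.62 for HK2 (adjusted p = 0.358).

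The other members lay between -0.03 for ALDOA and 0.95 for PFKP, with adjusted p from 0.65 to 0.931. Their directions are not stable to scaling. With size factors GPI, GAPDH, PGAM1, ENO1 and LDHA turned to values below 0, between -0.07 and -0.43. The median of the 10 genes was 0.20, below that of all genes at 0.33, and 4 of the 10 lay above the median of all genes. Relative to all genes the median was -0.13, but 0.26 without the 3 libraries that stood apart. When the position of each library on the leading axis of within-group variation was added as a covariate, 3 genes passed in polysomal RNA: HK2 at 0.99 (adjusted p = 0.00139), TPI1 at -0.58 (adjusted p = 0.0107) and PGK1 at 1.26 (adjusted p = 0.0486). With this covariate 36.4% of all genes tested passed, so 3 of 10 is near the share over all genes. That axis was computed from the same libraries. The 4 mesenchymal markers, nearly all of it VIM, summed to 720.4 to 1916 TPM in siEIF3G polysomal against 266 to 601 TPM in siCtrl polysomal libraries. The part of this shift in the values of the glycolytic genes was not tested.

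The third comparison, the interaction, asks whether the siEIF3G effect in polysomal RNA differs from that in input RNA, and so compares polysome loading. None of the 10605 genes passed, 19 (0.179%) had an unadjusted p under 0.05, and none of those was a glycolytic enzyme. The values for the 10 genes ran from -0.47 (SE 0.32) for TPI1 to 1.12 (SE 0.78) for PGK1, all with an adjusted p of at least 0.908. Their median was 0.36, against 0.38 for all genes. LDHA was at 0.89 (SE 0.71) and PFKP at 0.68 (SE 0.75), while GAPDH was at 0.04 (SE 0.38) and GPI at -0.01 (SE 0.66). Single libraries moved the larger values. PGK1 was at 0.59 without siCtrl polysomal 3 and at 1.88 without siCtrl polysomal 1, and PFKP at 0.18 and 1.36 without the same libraries. LDHA was at 0.45 without siCtrl input 3 and at 1.503 without siCtrl input 1. With standard errors of 0.31 to 0.89, these values do not show that loading was equal with siEIF3G and siCtrl.

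**Figure D3:**
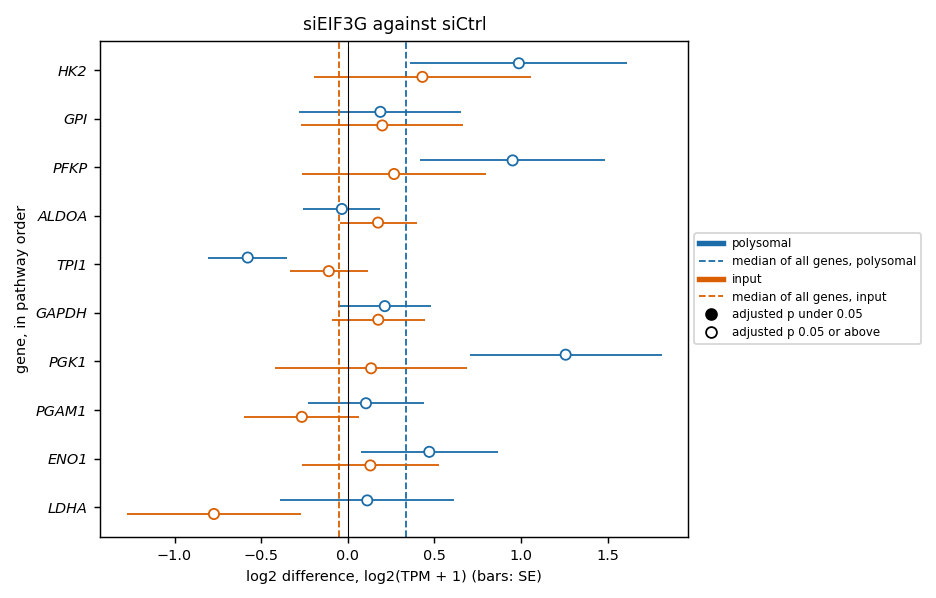
Log2 difference of siEIF3G against siCtrl for each gene, in pathway order from top to bottom, in polysomal RNA (upper point of each pair) and input RNA (lower point), with bars of 1 SE and dashed lines at the median of all genes tested. All points are open because no gene had an adjusted p under 0.05, and TPI1 in polysomal RNA and LDHA in input RNA lie farthest left.

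Shares among isozymes are ratios within a library, so scaling by 1 factor per library does not touch them. They were computed after the values had been seen. Lactate dehydrogenase is a tetramer of LDHA and LDHB, of which LDHA-rich forms favour lactate production. LDHA made up 10.5%, 17.4% and 12.8% of LDHA plus LDHB in siEIF3G input against 20.1%, 23.3% and 23.0% in siCtrl input. In polysomal RNA it made up 13.6%, 10.4% and 9.40% with siEIF3G against 17.8%, 18.8% and 22.6% with siCtrl. In both fractions each siEIF3G library lay below each siCtrl library. The mean share was 13.6% ± 3.48 with siEIF3G and 22.1% ± 1.77 with siCtrl in input RNA, and 11.1% ± 2.19 with siEIF3G and 19.7% ± 2.50 with siCtrl in polysomal RNA (SD, n = 3 each). The differences were -8.56 and -8.60 percentage points. Each had p = 0.1 in the exact two-sided permutation test, the smallest p that 3 against 3 libraries allow, and 0.457 after adjustment over 16 such tests, so neither passed. Without the 3 libraries that stood apart the differences were -11.5 points in input RNA and -7.75 points in polysomal RNA. LDHB itself was at 422 to 1625 TPM in siEIF3G input against 448 to 1636 TPM in siCtrl input, and at 903 to 1952 TPM in siEIF3G polysomal against 334 to 996 TPM in siCtrl polysomal.

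In the other families siEIF3G and siCtrl libraries overlapped in both fractions. HK2 made up 19.8%, 10.8% and 25.7% of HK1 plus HK2 in siEIF3G polysomal against 41.1%, 32.4% and 38.2% in siEIF3G input, without overlap (-18.5 points, exact permutation p = 0.1, adjusted 0.457). In siCtrl cells it made up 8.56%, 28.7% and 24.5% in polysomal against 26.8%, 34.2% and 37.5% in input RNA, with overlap. PFKP made up 23.7% to 48.1% of the 3 phosphofructokinases in the 12 libraries, and ENO1 98.8% to 99.4% of the 3 enolases.

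**Figure D4:**
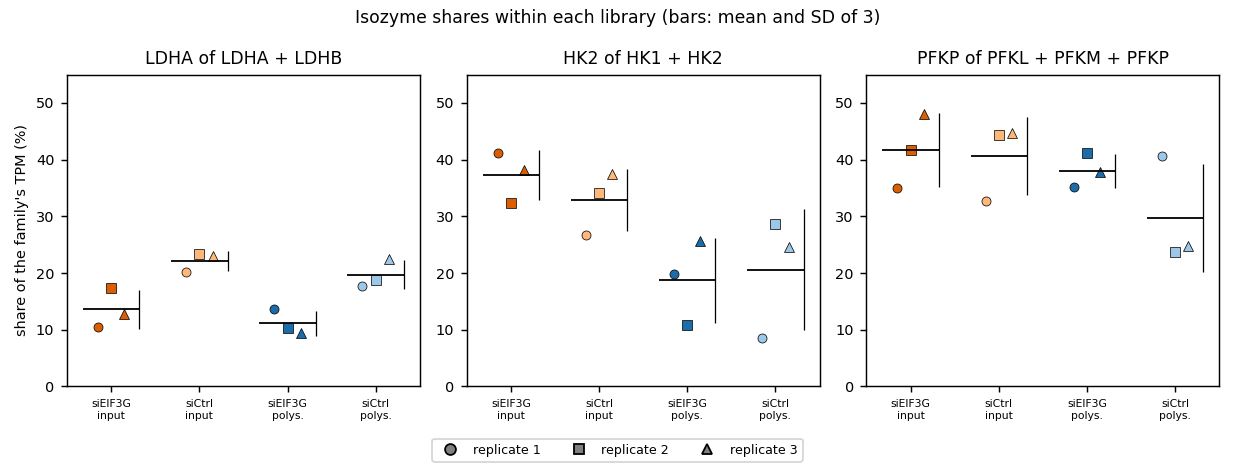
Share of LDHA, HK2 and PFKP in the summed TPM of their isozyme family (in percent, linear axis from 0) in every library of the 4 groups, with symbols for the replicate number, a horizontal line at the mean and a bar of 1 SD of 3 libraries. LDHA lies lower in siEIF3G than in siCtrl libraries in both fractions, and HK2 lies lower in siEIF3G polysomal than in siEIF3G input libraries.

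Within groups the 10 mRNAs did not vary as one. Deviations of each library from its group mean on the log2(TPM + 1) scale were correlated over the 12 libraries, as a description, since the genes share libraries and scaling. HK2 and LDHA deviated together (Pearson r = 0.93), both low in siEIF3G input 2 and siCtrl input 1. PFKP, PGK1, PGAM1 and ENO1 deviated together with r of 0.83 to 0.97, and all 4 were high in siCtrl polysomal 1. GAPDH deviated with ENO1 (r = 0.94). TPI1 ran against HK2 (r = -0.81) and LDHA (r = -0.74). The leading axis of the deviations of all genes held 78.0% of the within-group variance, and followed HK2 (r = -0.98), LDHA (r = -0.95) and TPI1 (r = 0.81) much more closely than GAPDH (r = 0.12), ENO1 (r = -0.09) or GPI (r = -0.02).

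**Figure D5:**
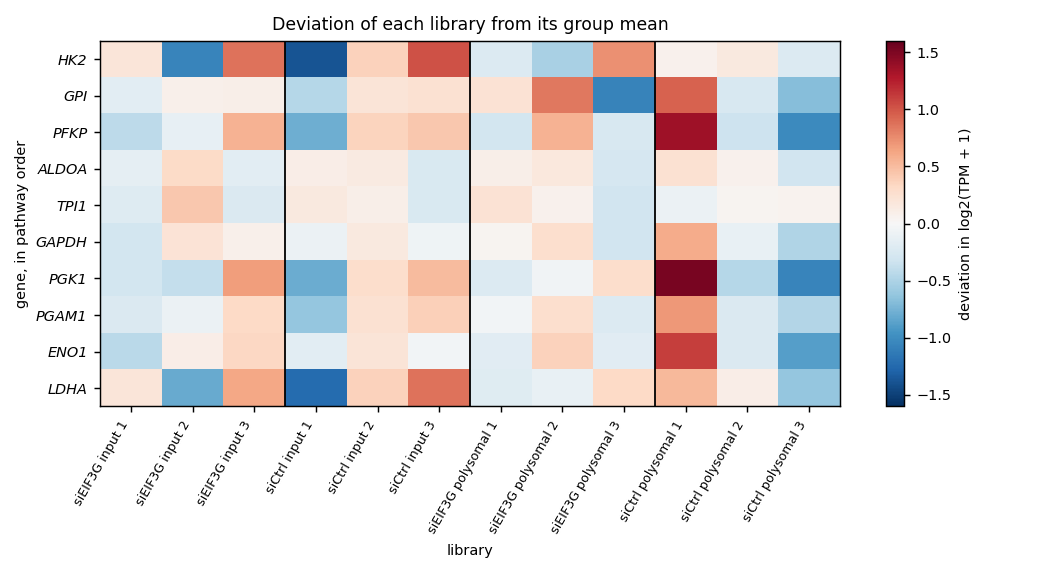
Deviation of each library from its group mean, in log2(TPM + 1), for the 10 genes in pathway order (rows) and the 12 libraries (columns, groups parted by lines), with red for values above and blue for values below the group mean. HK2 and LDHA are blue in siEIF3G input 2 and siCtrl input 1, and PFKP, PGK1 and ENO1 are deep red in siCtrl polysomal 1.

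Of 60 tested genes around the core pathway, 4 were called between fractions in siEIF3G cells (6.67%, against 3.14% of all genes tested) and 23 in siCtrl cells (38.3%, against 36.9%). In none of the 7 lists was a gene called between siEIF3G and siCtrl in input RNA, polysomal RNA or loading. Each list was described by its tested genes that averaged 50 TPM or more and by its most positive and most negative gene in the comparison of siEIF3G with siCtrl in polysomal RNA.

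Of 10 tested genes for other glycolytic isozymes and steps, PFKL (liver-type phosphofructokinase) was higher in polysomal RNA with both siRNAs, by 1.21 in siEIF3G cells (adjusted p = 0.045) and by 1.18 in siCtrl cells (adjusted p = 0.0261). In siCtrl cells ENO2 (1.08, adjusted p = 0.0465) was also called higher and BPGM (-2.08, adjusted p = 0.0297) lower. PKM, which makes pyruvate, stood at 3584, 5139.97 and 2831 TPM in siEIF3G polysomal against 1140.4, 1686 and 2012 TPM in siEIF3G input, and its difference of 1.25 did not pass (adjusted p = 0.136). In siCtrl cells PKM differed by 0.61 (adjusted p = 0.235). Between siEIF3G and siCtrl polysomal RNA the most positive gene was the muscle-type PFKM at 1.59, with LDHB at 1.10 (adjusted p = 0.65 for both). The list median there was 0.68, against 0.20 for the 10 enzymes and 0.33 for all genes.

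Among 6 tested transporters, the lactate exporter SLC16A3 and its chaperone BSG were higher in polysomal RNA with both siRNAs. SLC16A3 stood at 402, 444 and 247 TPM in siEIF3G polysomal against 151, 172 and 117 TPM in siEIF3G input, a difference of 1.28 (adjusted p = 0.0177), and its siCtrl difference was 1.38 (adjusted p = 0.00899). BSG differed by 1.20 in siEIF3G cells (adjusted p = 0.037) and by 1.36 in siCtrl cells (adjusted p = 0.0149). SLC16A1, another lactate carrier, was called lower in siCtrl cells (-2.12, adjusted p = 0.0409). The glucose importer SLC2A1 did not pass, at 0.46 in siEIF3G cells and -0.15 in siCtrl cells (adjusted p = 0.497 and 0.801). Between siEIF3G and siCtrl polysomal RNA, SLC16A3 was at the low end of the list at -0.60 and SLC16A1 at the high end at 1.69, neither past the threshold (adjusted p = 0.65 for both).

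Of 8 tested regulators none was called in siEIF3G cells. In siCtrl cells PFKFB4, which sets the level of a phosphofructokinase activator, was higher in polysomal RNA (1.13, adjusted p = 0.0495) and HIF1A was lower (-2.02, adjusted p = 0.0457). Between siEIF3G and siCtrl polysomal RNA this list ran from -0.80 for PDK2, a kinase that restrains pyruvate dehydrogenase, to 0.84 for HIF1A. Of 3 tested gluconeogenesis genes G6PC3 was higher in siCtrl polysomal than in siCtrl input RNA (1.14, adjusted p = 0.0227), and PCK2 was not called (0.49, adjusted p = 0.474).

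Of 7 pentose phosphate genes, which branch off at glucose-6-phosphate, none was called in siEIF3G cells. In siCtrl cells PGLS, which hydrolyses the lactone made in the oxidative branch, was higher in polysomal RNA (0.79, adjusted p = 0.0419). PGD (-0.24), TKT (0.61), TALDO1 (0.34) and RPE (-1.34) did not pass in siCtrl cells, with adjusted p from 0.111 to 0.703. Of 17 citric acid cycle genes, IDH3B was higher in polysomal RNA with both siRNAs, by 1.77 in siEIF3G cells (adjusted p = 0.0165) and by 1.45 in siCtrl cells (adjusted p = 0.0222). In siCtrl cells IDH3G, SDHC and MDH2 were also called higher (0.75 to 1.08) and DLD and SDHD lower (-1.70 and -1.48). CS, DLST, SUCLG1, SDHB and FH did not pass with either siRNA. Between siEIF3G and siCtrl polysomal RNA the cycle ran from -0.11 for MDH2 to 1.79 for FH (adjusted p = 0.65), with 16 of 17 genes above 0, as were 7705 of all 10605 genes.

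Of 9 tested hypoxia targets outside glycolysis none was called in siEIF3G cells. In siCtrl cells DDIT4 was higher in polysomal RNA (1.07), and 5 genes were lower (VEGFA, BNIP3, EGLN1, P4HA1 and KDM3A), with values of -1.48 to -2.06 and adjusted p from 0.0393 to 0.0464 over these 6, where 7.98% of all genes tested were called higher and 28.9% lower. The list median was -1.61 in siCtrl cells, against 0.39 for the 10 enzymes and -0.96 for all genes. Relative to all genes, medians in siCtrl cells were 1.57 for gluconeogenesis, 1.31 for pentose phosphate genes and 1.14 for transporters. The 10 enzymes were at 1.35. Other isozymes, citric acid cycle, regulators and hypoxia targets were at 0.58, 0.40, 0.34 and -0.65. In siEIF3G cells these lists, in the same order, were at 1.22, 0.96, 0.78, 0.85, 0.74, 0.23 and -0.27, against 1.31. ANKRD37, of the hypoxia list, was not called between fractions with either siRNA.

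The genes whose log2 level followed the mean of the 10 enzymes most closely over the 12 libraries, out of 2134 genes that averaged at least 50 TPM, were PSMD2 (r = 0.99), PRPF19 (r = 0.97), FXR2 (r = 0.97), ANXA6 (r = 0.97) and NUDC (r = 0.97).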

How the data were processed

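RNA from 12 libraries of H1299 cells was enriched for mRNA with oligo(dT) beads and sequenced as DNA nanoballs, per the labels' protocols. The authors deposited TPM (transcripts per 1000000 transcripts) for 16172 genes. Per the submitters' processing notes they used RSEM 1.3.1 and GRCh38.p13, with the aligner, annotation and filters not given in the sources used here. Each library sums to 1000000 within 0.54, so read depth is unknown and no counting interval can be given.

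Log2(TPM + 1) of the 10605 genes averaging 1 TPM or more was fitted with 4 group means in limma 3.58.1 (R 4.3.3, trend, 8 residual degrees of freedom), with Benjamini-Hochberg adjustment over these genes in each of 5 comparisons. The fit was also tested on simulated data with independent noise of equal spread for all genes. These lacked the leading axis of within-group variation seen here, so they do not show how stable the calls are. Alternatives were other pseudocounts, filters, scalings, variance models, a replicate block, an axis covariate and libraries left out. The 10 genes, the 7 further lists and most alternatives were chosen with earlier results of these data known. Isozyme shares and their alternatives were added after the values had been seen. Beyond the 10 genes, named genes are list members averaging 50 TPM or more, the extremes of each list in the polysomal comparison and the 5 genes most alike, of which a few are not reported here. HK1, ENO2, BPGM, SLC2A1, PFKFB4, DLD, DDIT4, VEGFA, BNIP3, EGLN1 and KDM3A were named after their values were seen.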

Additional observations from a re-analysis of the deposited data

How the results depend on the processing

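Of the 1240 recomputed differences of single genes, 1113 kept their direction and their side of the threshold, 68 changed sign, 41 lost a call and 18 gained one. The cause of the changes named here was not tested unless stated. In input RNA (siEIF3G against siCtrl), GPI (-0.064), PFKP (-0.053), PGK1 (-0.071) and ENO1 (-0.0072) changed sign without the 3 libraries that stood apart, and GAPDH (-0.10) with quantile normalization. In polysomal RNA, GPI (-0.35), GAPDH (-0.33), PGAM1 (-0.43), ENO1 (-0.069) and LDHA (-0.42) changed sign with size factors, ALDOA with quantile normalization (0.029) and without the 3 libraries (0.10), and LDHA without them (-0.046). Quantile normalization sets the top value of each library equal, so GAPDH, ranked 1 in all 6 polysomal libraries, is at 0 there by construction. In loading, GPI (0.79) and ALDOA (0.029) changed sign without the 3 libraries, GAPDH (-0.54), PGAM1 (-0.20) and ENO1 (-0.23) with size factors, and GAPDH (-0.053) with totals without ribosomal protein genes. For polysomal against input RNA, LDHA in siEIF3G cells changed sign with quantile normalization (-0.20), without ribosomal protein genes (-0.15) and without the 3 libraries (-0.50). In siCtrl cells PFKP (-0.026, -0.098 and -0.37) and PGK1 (-0.0050, -0.039 and -0.32) did so under the same settings, PGAM1 (-0.010) without the 3 libraries and LDHA (0.34) with size factors.

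Leaving out each library in turn changed signs as well. In input RNA the ranges were -0.26 to 0.96 for HK2, -0.026 to 0.32 for GPI, -0.12 to 0.48 for PFKP, -0.33 to 0.0041 for TPI1, -0.26 to 0.39 for PGK1 and -0.035 to 0.35 for ENO1. In polysomal RNA they were -0.23 to 0.72 for GPI, -0.19 to 0.10 for ALDOA, -0.025 to 0.51 for GAPDH, -0.13 to 0.45 for PGAM1 and -0.20 to 0.37 for LDHA. In loading they were -0.43 to 0.53 for GPI, -0.20 to 0.33 for GAPDH and -0.10 to 0.89 for ENO1. For polysomal against input RNA they were -0.35 to 0.37 for LDHA in siEIF3G cells, and -0.66 to 0.52 for PFKP, -0.68 to 0.61 for PGK1 and -0.048 to 0.53 for PGAM1 in siCtrl cells.

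The number of the 10 genes called between siEIF3G and siCtrl was 0 in each fraction and in loading under each setting, except 3 in polysomal RNA with the axis covariate, which called 36.4% of all genes tested there and 18% in loading. For polysomal against input RNA in siEIF3G cells, 2 calls (3.14% of all genes tested were called) became 0 with size factors, without ribosomal protein genes, without the trend and with only the groups compared (0.443%, 3.46%, 1.4% and 0.641% of all genes). They became 6 with the axis covariate (61.3%), 5 without the 3 libraries (71.1%), and 0 to 3 with single libraries left out (0.415% to 7.43%). The 4 calls in siCtrl cells (36.9%) became 2 with no filter (7.73%) and with only the groups compared (5.75%). They became 7 with size factors (43%), 5 without the 3 libraries (75.1%), and 2 to 5 with single libraries left out (1.23% to 67.8%). LDHA gained a lower call in siCtrl cells without the 3 libraries (-1.44, adjusted p = 0.000793). It also did so with the axis covariate (-0.83, adjusted p = 0.00374), where 74.3% of all genes tested were called. The median relative to all genes in siEIF3G cells (1.31) was 0.82 with quantile normalization and 1.88 without the 3 libraries. In siCtrl cells (1.35) it was 0.89 with a pseudocount of 5, 0.70 with no filter and 0.26 with quantile normalization. The LDHA share kept its direction in all 14 recomputations, each of which left out libraries. As siEIF3G and siCtrl libraries did not overlap in this share, leaving libraries out could not turn its direction.

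Whether replicate numbers mark shared lysates is not stated. Only input and polysomal RNA of the same siRNA could share a lysate. Deviations of such libraries with the same number correlated at -0.45, 0.63 and 0.61 in siEIF3G cells. In siCtrl cells they correlated at -0.13, 0.36 and -0.53. These mixed signs do not settle whether lysates were shared, and the numbers were not taken as pairs in the main fit. With the replicate block 3 of the 10 genes were called in siCtrl cells, as HK2 was lost (-1.70, adjusted p = 0.0547). Of all genes tested 20% were called there, against 36.9% without the block. The numbers of the 10 genes called in the other comparisons were as without it.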
